A study of Arabidopsis thaliana with 48 samples.

Results

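Galactinol synthase and raffinose synthase genes make the sugars of the raffinose family, and 7 of them were followed by locus identifier among the 32824 loci measured in Arabidopsis thaliana seedlings. The 7 were the galactinol synthases GOLS1 (AT2G47180), GOLS2 (AT1G56600), GOLS3 (AT1G09350) and GOLS4 (AT1G60470), the raffinose synthases RS5 (AT5G40390) and RS4 (AT4G01970), and DIN10 (AT5G20250), a raffinose synthase family member. Whole seedlings of wild-type Col-0 (WT) and of rap2.3_1, a T-DNA insertion line of the ethylene response factor gene RAP2.3, were 6 days old when treated, and each library pooled many seedlings grown on plates. The control (CT) was kept in light of 50 µmol m-2 s-1, at 21 °C and without added salt. Excess light (EL) was 700 µmol m-2 s-1 and heat (HS) was 33 °C, each given for 1.5 h, while salt (S) was 50 mM NaCl in the medium from sowing, so salt lasted the whole life of the seedling and the other stresses did not. Each pair of stresses (EL+HS, S+EL, S+HS) and all of them together (S+EL+HS) completed the set. With 8 treatments, 2 genotypes and 3 replicates there were 48 libraries in 16 groups, and only 1 insertion line was sequenced.

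The libraries were alike in depth and differed in some tissue markers. Relative depth, read from the steps between low values, ran from 0.760 to 1.12 of the first WT CT library, and replicates correlated at Pearson's r of 0.969 to 0.990 over genes. RAP2.3 itself stood at 34.9 to 86.1 FPKM (fragments scaled to transcript length and library size) in WT and at 206 to 602 FPKM under the rap2.3 label, so the transcript was higher, not lower, there and no result here is read as the loss of RAP2.3. The leaf markers RBCS1A, LHCB2.1 and CAB1 summed to 17574 to 31868 FPKM, and the root markers IRT1, CASP1 and EXPA7 to 22.8 to 308.5 FPKM. Of the 4 seed markers, CRA1 was listed at 0 in 3 of 48 libraries, OLEO1 in 17, CRU3 in 34 and SESA1 in 35, and their sum ran from 0.304 to 79.7 FPKM in WT CT, the highest library of all 48 included. The part of this seed signal in the comparisons with CT was not tested. In WT the root sum was 37.5 to 80.8 FPKM at CT and 196 to 309 FPKM at S, and CASP1 rose by 1.98 ± 0.24 (log2 ± SE) under salt.

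Galactinol synthase joins UDP-galactose to myo-inositol, and this first step commits carbon to the raffinose family. Raffinose synthase then moves the galactose from galactinol to sucrose, giving back myo-inositol. Galactinol and raffinose are known in plants as compatible solutes and as scavengers of hydroxyl radicals that build up in drought, cold, heat and salinity. In Arabidopsis, GOLS1 and GOLS2 are known as drought, salt and heat responsive genes, GOLS3 as a cold responsive one and a target of the DREB1 factors, and RS5 as the enzyme behind raffinose in stressed leaves. RS4 is known from seeds. DIN10 takes its name from induction in darkness.

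The 250 bases upstream of 4 of the genes, from the RefSeq TAIR10.1 assembly and written 5′ to 3′ on the strand of the gene, are shown because these genes gave the separate patterns of heat, of salt with light, and of decrease described here. Capitals mark a heat shock element (the triplets GAA, TTC and GAA, or TTC, GAA and TTC, with any 2 bases between neighbours), the core of the dehydration responsive element (CCGAC, which reads GTCGG on the other strand) or the core of the abscisic acid responsive element (ACGTG). The windows are chr2:19370479-19370728 (minus strand) for GOLS1, chr1:21207287-21207536 (plus) for GOLS2, chr5:16161199-16161448 (plus) for RS5 and chr5:6833314-6833563 (plus) for DIN10.
GOLS1: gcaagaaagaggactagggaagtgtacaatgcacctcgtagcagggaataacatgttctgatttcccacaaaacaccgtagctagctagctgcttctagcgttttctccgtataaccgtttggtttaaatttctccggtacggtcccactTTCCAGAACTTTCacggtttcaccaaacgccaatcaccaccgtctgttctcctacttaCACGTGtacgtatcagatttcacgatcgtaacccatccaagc
GOLS2: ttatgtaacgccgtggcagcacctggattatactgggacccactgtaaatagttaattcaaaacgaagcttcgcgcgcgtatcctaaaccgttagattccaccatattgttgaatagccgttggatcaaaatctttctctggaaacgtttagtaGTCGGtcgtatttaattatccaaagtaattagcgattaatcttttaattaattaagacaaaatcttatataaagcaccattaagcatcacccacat
RS5: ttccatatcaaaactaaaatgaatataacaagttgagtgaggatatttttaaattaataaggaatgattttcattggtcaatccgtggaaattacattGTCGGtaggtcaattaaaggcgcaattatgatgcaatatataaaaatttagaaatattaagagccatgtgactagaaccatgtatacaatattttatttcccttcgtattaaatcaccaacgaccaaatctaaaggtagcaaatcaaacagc
DIN10: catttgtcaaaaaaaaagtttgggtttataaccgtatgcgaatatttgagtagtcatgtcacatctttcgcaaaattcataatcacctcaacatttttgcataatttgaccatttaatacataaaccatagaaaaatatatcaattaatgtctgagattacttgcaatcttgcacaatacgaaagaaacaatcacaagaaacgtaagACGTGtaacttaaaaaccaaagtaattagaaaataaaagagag

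All 7 genes were matched to TAIR10.1, and their 250-base windows were searched on both strands. The GOLS1 window held the only heat shock element among the 7, starting 100 bases before the annotated start, and 106 of 27443 windows of the same length held one (0.386%). It also held CACGTG, which reads ACGTG on both strands and so counts as 2 overlapping matches. The dehydration responsive core stood in the GOLS2 window at -96, in the RS5 window at -152 and in the GOLS3 window at -216 and -205, against 12% of all windows. The abscisic acid responsive core stood in the GOLS1, GOLS3, RS4 and DIN10 windows, against 22.9% of all windows, and none of these letters stood in the GOLS4 window. A match is a description of the letters only.

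GOLS1 lies at chr2:19368798-19370478 on the minus strand in 4 exons, and its 3′ end shares 43 bases with AT2G47170 on the other strand. GOLS2 (chr1:21207537-21209635, plus), GOLS3 (chr1:3019639-3021443, plus), RS5 (chr5:16161449-16165453, plus) and RS4 (chr4:853922-857401, minus) overlap no other annotated gene. GOLS4 (chr1:22278975-22280593, minus) shares 33 bases with AT1G60460, and DIN10 (chr5:6833564-6836862, plus) shares 82 bases with AT5G20260. Whether the counting used strand is not given in the sources used here, so reads in these overlaps cannot be assigned. AT2G47170 moved the other way from GOLS1, at 220 to 239 FPKM in WT CT and 138 to 196 FPKM in WT HS. AT1G60460 stood at 0.214 to 2.48 FPKM, in the range of GOLS4 itself, and AT5G20260 stayed at or under 0.897 FPKM. The coding sequences of GOLS2 and GOLS3 were 83.3% identical, with 26 identical bases in a row at most, and the other galactinol synthase pairs were 71.2% to 74.2% identical.

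GOLS1 was the most abundant of the 4 galactinol synthases and the one with the highest levels in heat. It stood at 18.7, 18.05 and 16.5 FPKM in the 3 WT CT libraries and at 1082, 732 and 514 FPKM in the 3 WT HS libraries. The WT EL+HS libraries held 949.6, 965 and 871 FPKM, the S+HS libraries 1216, 1377 and 1050.1 FPKM, and the S+EL+HS libraries 893, 897 and 993 FPKM. Every WT library with heat was thus above every WT CT and S library, and the 4 groups with heat overlapped one another except that S+HS lay above EL+HS and S+EL+HS.
On the log2(FPKM + 1) scale used for all changes, heat alone raised GOLS1 by 5.31 ± 0.48 (SE; adjusted p = 1.12e-07, limma), EL+HS by 5.63, S+HS by 6.01 and S+EL+HS by 5.63, all in WT. Under the rap2.3 label the same 4 changes were 5.22, 5.70, 5.68 and 5.88. These 8 increases passed under every alternative run.

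Light without heat gave GOLS1 intermediate and very uneven levels. The WT EL libraries held 64.1, 167 and 526 FPKM, and the S+EL libraries 75.9, 121 and 239.7 FPKM. The EL libraries with the rap2.3 label held 48.4, 248 and 669 FPKM, and their S+EL counterparts 71.1, 174 and 349 FPKM. All 12 lay above the CT libraries of their genotype, and EL overlapped S+EL in both. The increase over CT was 3.26 ± 0.48 in WT at EL (adjusted p = 0.000103, limma) and 3.31 ± 0.60 with the rap2.3 label (adjusted p = 0.000791), the last of which did not pass when the fit held the 6 compared libraries alone (adjusted p = 0.0575). It rested on uneven libraries: without EL replicate 1 it was 3.99 in WT and 4.33 with the rap2.3 label, and without EL replicate 3 it was 2.48 and 2.45. Salt alone gave 51.7, 36.1 and 30.6 FPKM in WT, above all CT libraries, but the change of 1.08 ± 0.48 did not pass (adjusted p = 0.133), and passed with only the compared libraries (adjusted p = 0.00583). The rap2.3 salt libraries gave 31.4, 46.2 and 35.4 FPKM against 19.6, 17.04 and 21.7 FPKM at CT, a change of 0.91 ± 0.60 (adjusted p = 0.283), and 0.00452 with only the compared libraries.

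**Figure D1:**
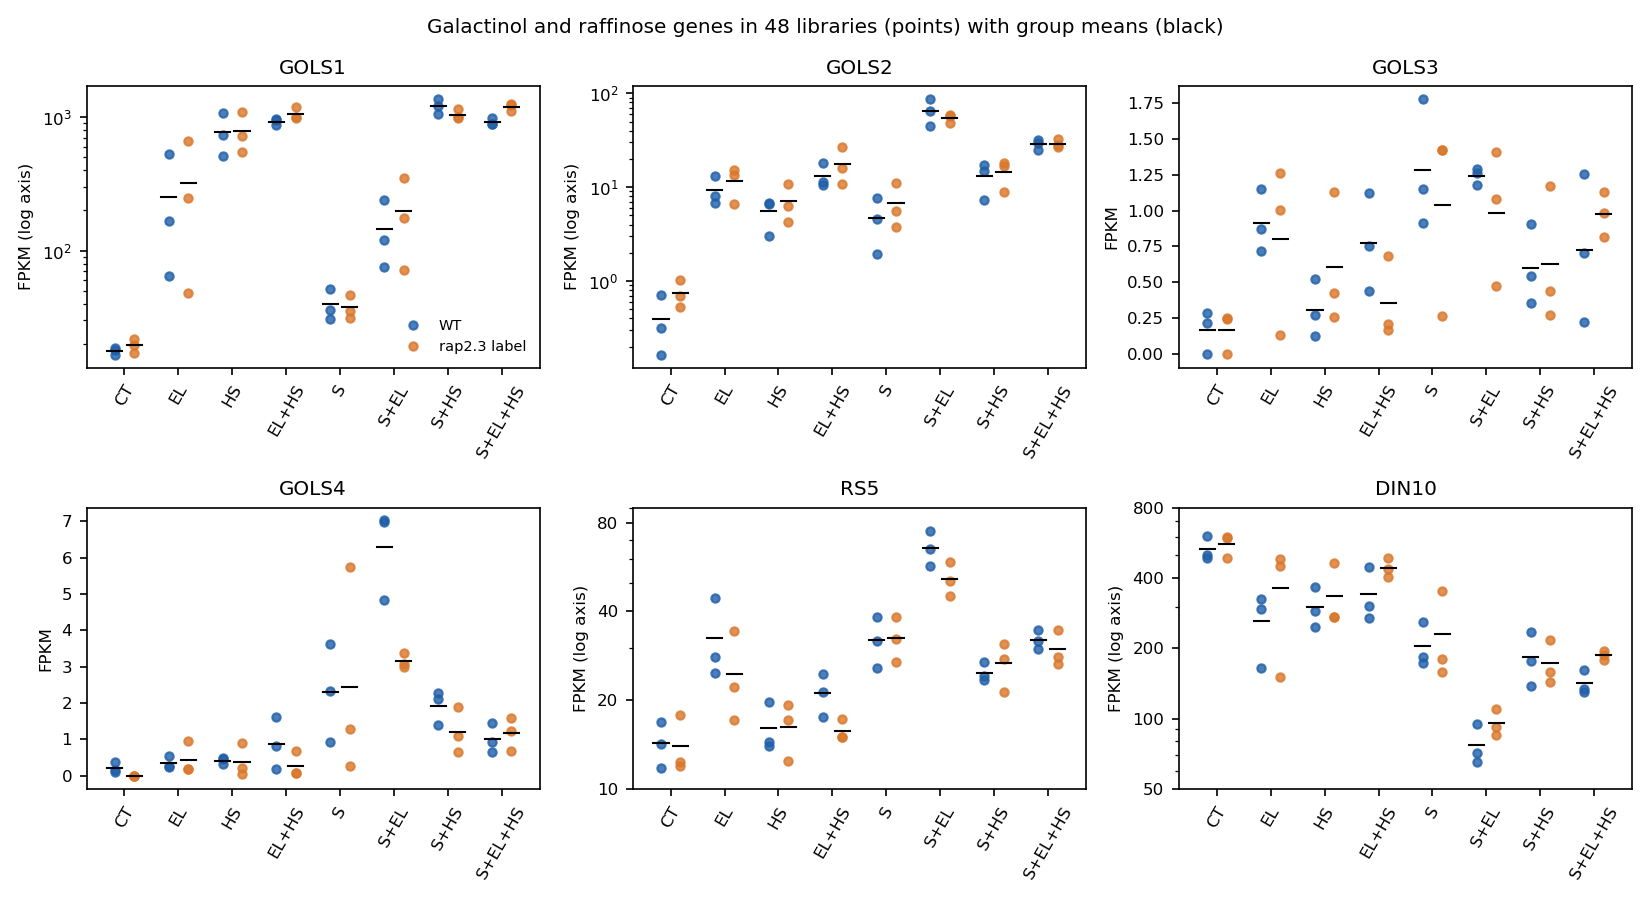
FPKM of 6 genes in each library by treatment, with WT in blue and the libraries labelled rap2.3 in orange; points are libraries and black bars are means of 3, and the GOLS1, GOLS2, RS5 and DIN10 axes are logarithmic. GOLS1 is highest in the groups with heat, GOLS2, GOLS4 and RS5 are highest at S+EL, where DIN10 is lowest.

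GOLS2 had its highest level under salt with excess light. It was nearly absent from WT CT, at 0.315, 0.164 and 0.717 FPKM, and reached 44.7, 87.3 and 64.2 FPKM at S+EL. The WT S+EL+HS libraries held 31.6, 29.2 and 24.6 FPKM, below all S+EL and above all other WT libraries. The other 5 stress groups lay from 1.96 FPKM, in an S library, to 18.03 FPKM, in an EL+HS library, and neighbours in that order overlapped. GOLS2 rose in all 7 WT treatments, from 1.92 ± 0.37 at S (adjusted p = 0.00112, limma) and 2.18 at HS to 4.41 at S+EL+HS and 5.54 ± 0.37 at S+EL (adjusted p = 1.91e-09). It also rose in all 7 with the rap2.3 label, from 2.05 at S to about 5 at S+EL, where its libraries held 59.3, 57.5 and 48.02 FPKM. These 14 increases passed under every alternative run. All WT CT libraries lay under the filter level of 1 FPKM, so GOLS2 entered the test through stressed libraries, and its calls against CT are a description of where it was high.

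GOLS3 and GOLS4 were weak genes, and both likewise passed the filter of 1 FPKM in at least 3 libraries only through stressed libraries, so their calls are a description. GOLS3 never exceeded 1.78 FPKM, a value of WT S, and was at 0, 0.220 and 0.290 FPKM in WT CT. It passed in WT at EL (0.71 ± 0.23), S (0.95) and S+EL (0.95), and with the rap2.3 label at S+EL+HS only (0.77 ± 0.31, adjusted p = 0.0496, limma), which was lost without any 1 of the 6 libraries compared (adjusted p 0.0701 to 0.148). At EL in WT it was lost without CT replicate 1 (adjusted p = 0.133), 2 (0.0593) or 3 (0.0505) and without EL replicate 1 (0.102) or 3 (0.0746). At EL+HS in WT GOLS3 (0.59, 0.054) passed without EL+HS replicate 2 (0.0380), and at S+EL+HS (0.53, 0.0712) without S+EL+HS replicate 1 (0.0175). GOLS3 libraries with the rap2.3 label passed at S without S replicate 3 (0.0176) and at S+EL without S+EL replicate 3 (0.0404).

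GOLS4 rose with salt in WT and was highest with salt and light. Its WT CT libraries held 0.151, 0.389 and 0.0912 FPKM, its S libraries 2.33, 3.61 and 0.937 FPKM, and its S+EL libraries 4.85, 7.03 and 6.99 FPKM. The S+EL libraries lay above all others in WT, and EL alone, at 0.239 to 0.539 FPKM, overlapped CT. The change was 2.58 ± 0.28 at S+EL (adjusted p = 8.48e-07, limma), 1.36 ± 0.28 at S, 1.27 at S+HS and 0.72 under all 3 stresses. The last (adjusted p = 0.0484) was lost without CT replicate 1 (0.110), 2 (0.0524) or 3 (0.128) and without S+EL+HS replicate 1 (0.175) or 2 (0.0819), and also with size factors (0.0527) and with the replicate block (0.0602). At EL+HS GOLS4 (0.56, 0.139) passed without EL+HS replicate 1 (0.0332).
GOLS4 with the rap2.3 label was listed at 0 in all 3 CT libraries, so no fold is given there. Its S+EL libraries held 3.38, 3.07 and 2.997 FPKM and its S libraries 1.28, 5.75 and 0.254 FPKM, where 1 library stood far above the others. The test at S+EL passed (adjusted p = 0.000622), and that at S (adjusted p = 0.0146) did not without S replicate 2 (0.122). The calls at S+HS (0.0358) and S+EL+HS (0.0370) were each lost without any 1 of the 3 CT libraries or without replicate 1 or 3 of the stress (0.0657 to 0.138).

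The makeup of the galactinol synthase transcripts moved with the treatment. In WT CT, GOLS1 was 95.7% ± 1.9 (SD, n = 3) of the summed FPKM of GOLS1 to GOLS4, and the sum was 18.5 ± 0.819 FPKM. At HS it was 99.1% of a sum of 782 ± 287 FPKM. At S it was 83.3% ± 5.0 and at S+EL 64.2% ± 11.1, where GOLS2 made 32.1% ± 10.3 of 218 ± 92.7 FPKM. Under the rap2.3 label the GOLS1 share was 95.4% at CT, 99.0% at HS, 80.1% ± 8.8 at S and 71.2% ± 17.4 at S+EL. The mean share was lowest at S+EL in both genotypes, but with the rap2.3 label S and S+EL were not separated beyond their SDs. FPKM is per length, which allows genes to be summed.

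RS5, the raffinose synthase of stressed leaves, rose with salt and with light, and heat alone gave no call. It stood at 11.8, 14.3 and 16.9 FPKM in WT CT, at 38.4, 31.7 and 25.6 FPKM at S, and at 44.6, 28.1 and 24.8 FPKM at EL. The S+EL libraries, at 65.1, 74.6 and 56.9 FPKM, lay above all others. The HS libraries, at 13.97, 14.5 and 19.7 FPKM, overlapped CT. The change was 1.10 ± 0.19 at S (adjusted p = 0.000507, limma), 1.10 at EL, 2.12 ± 0.19 at S+EL (adjusted p = 8.3e-08), 0.76 at S+HS and 1.12 under all 3 stresses, while heat alone gave 0.15 (95% interval -0.25 to 0.55, adjusted p = 0.592). EL+HS gave 0.53 ± 0.19 (adjusted p = 0.0403), lost without CT replicate 1 (0.170) or 2 (0.0771), without EL+HS replicate 1 (0.144) or 3 (0.0915), and with the replicate block (0.0517).
RS5 with the rap2.3 label held 58.9, 50.7 and 45.3 FPKM at S+EL against 12.3, 11.95 and 17.8 FPKM at CT. It rose by 1.82 at S+EL, 1.16 at S, 0.89 at S+HS and 1.04 under all 3 stresses, and by 0.73 ± 0.22 at EL (adjusted p = 0.0275), which was lost without CT replicate 1 (0.108) or 2 (0.109), without EL replicate 1 (0.47, 0.121) or 2 (0.0539) and with only the compared libraries (0.149). RS4, the seed enzyme, had 0 to 0.573 FPKM and reached 1 FPKM in 0 of 48 libraries, so it was not tested.

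DIN10, the dark-inducible member, was abundant at CT and lower under stress. It stood at 604, 499 and 488 FPKM in WT CT and at 94.6, 71.2 and 65.5 FPKM at S+EL, which lay below every other WT library. The S libraries held 173, 184 and 258 FPKM, the S+HS libraries 138, 235 and 177 FPKM, and the S+EL+HS libraries 133, 130.1 and 161 FPKM. Without salt, EL, HS and EL+HS lay between 164 and 447 FPKM, still below all CT libraries. The change was -2.78 ± 0.25 at S+EL (adjusted p = 6.76e-08, limma), -1.90 at S+EL+HS, -1.55 at S+HS, -1.38 at S and -1.07 at EL in WT.
DIN10 also passed in WT at HS (-0.83, adjusted p = 0.0144), lost without CT replicate 1 (0.0624) or HS replicate 3 (0.0660), and at EL+HS (-0.67, adjusted p = 0.0460), lost without CT replicate 1 (0.148), 2 (0.0700) or 3 (0.0686), without EL+HS replicate 1 (0.166) or 3 (0.126), with size factors (0.139) and with the replicate block (0.0526). Its CT libraries with the rap2.3 label held 600.2, 589.7 and 489 FPKM and its S+EL libraries 91.8, 85.0 and 110.1 FPKM, and it fell by 2.54 there, 1.36 at S, 1.70 at S+HS and 1.57 under all 3 stresses. The decreases at EL (-0.80, adjusted p = 0.121), HS (-0.77, 0.0899) and EL+HS (-0.33, 0.449) did not pass, though that at HS did without HS replicate 1 (-1.03, 0.0378). With only the compared libraries, those at HS (0.0313) and EL+HS (0.0409) passed. The EL, HS and EL+HS libraries, up to 482, 461 and 487 FPKM, all lay below the CT libraries with this label. The summed root markers, CASP1 among them, were also higher with salt in WT, at 196 to 309 FPKM at S and 178 to 229 FPKM at S+EL, against 42.6 to 53.9 FPKM at HS. Their ranges at S and S+EL overlapped, while RS5 and GOLS4 were highest and DIN10 lowest at S+EL. The summed leaf markers were 28082 to 30440 FPKM in WT CT, lower at EL (18684 to 22361), HS (20811 to 23039) and S+EL (20967 to 22011), where DIN10 was also lower, and overlapped CT at S (25142 to 31127), where DIN10 fell too. Light and heat lasted 1.5 h, and salt lasted from sowing. In whole seedlings grown on salt, fewer cells of a type and less RNA per cell cannot be told apart. The part of the root and leaf shares in these results was not tested.

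Over 6 members and 7 treatments, 33 of 42 tests passed in WT and 27 of 42 with the rap2.3 label, and the shares of all genes tested are given beside them. GOLS2, GOLS3 and GOLS4 lay under 1 FPKM in every CT library, except GOLS2 at 1.04 FPKM in rap2.3 CT replicate 2. These 3 genes made 14 of the WT calls and 12 of the others, so these counts describe the members and support nothing. GOLS1, RS5 and DIN10, which were above 1 FPKM in every CT library, made 19 of 21 calls in WT and 15 of 21 with the rap2.3 label. In WT, excess light raised 4 members and lowered 1, where 17.7% of 20744 genes passed (10% higher, 7.70% lower). Heat raised 2 and lowered 1, against 30.8% of all genes (15% higher, 15.7% lower). Light with heat raised 3 and lowered 1, against 31.3% (12% higher, 19.4% lower). Salt raised 4 and lowered 1, against 18.7% (13.6% higher, 5.17% lower). Salt with light raised 5 and lowered 1, against 36% (23.2% higher, 12.8% lower). Salt with heat raised 4 and lowered 1, against 44.9% (26% higher, 18.9% lower). All 3 stresses raised 4 and lowered 1, against 39.9% (23.6% higher, 16.3% lower). The median change of the 6 members was largest at S+EL, at 2.35, where the median of all genes was 0.09, and smallest at HS, at 0.19 against -0.01. The rap2.3 fit gave shares of all genes passing of 14.3%, 29.9%, 41.9%, 26.2%, 34.7%, 42.9% and 42.7% in the same order of treatments. There the median of all genes at EL+HS was -0.22, and -0.01 with size factors. Under every alternative run, 28 of the 33 WT calls and 21 of the 27 others held.

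**Figure D2:**
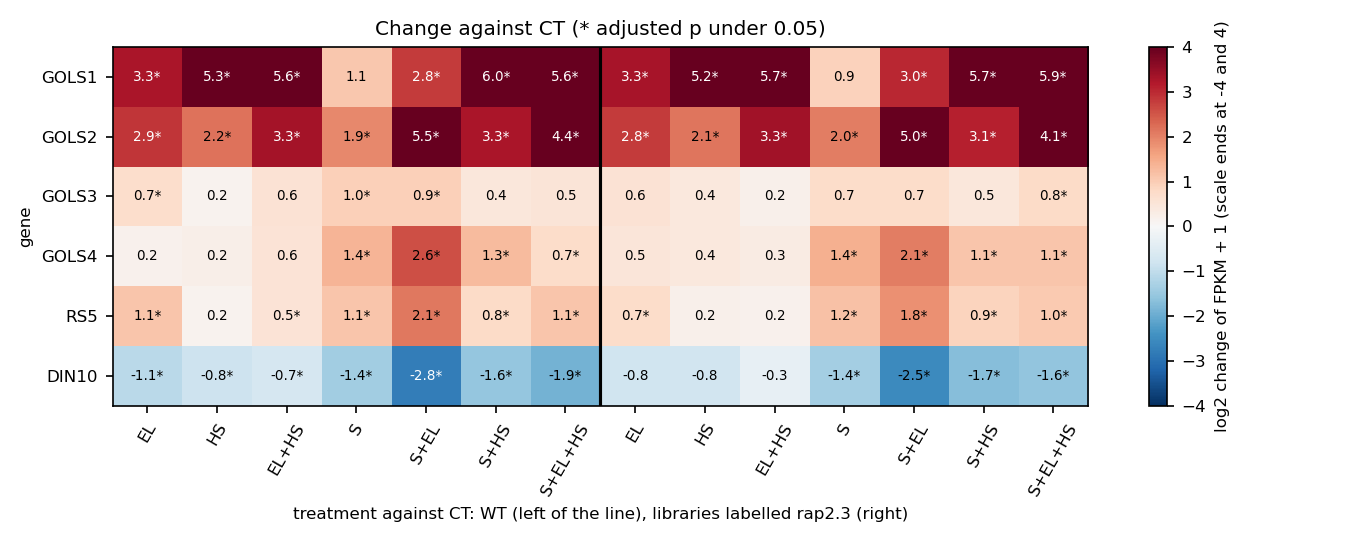
Log2 change of FPKM + 1 against CT for 6 genes (rows) in 7 treatments (columns), WT left and libraries labelled rap2.3 right of the line; stars mark an adjusted p under 0.05 and the colour scale ends at -4 and 4. GOLS1 is darkest in columns with heat, GOLS2 at S+EL, and DIN10 is blue throughout.

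Salt added to excess light changed 4 of the 6 members in each genotype. Salt added to excess light in WT raised GOLS2 by 2.68 ± 0.37 (adjusted p = 8.49e-05, limma), GOLS4 by 2.42 and RS5 by 1.03, and lowered DIN10 (-1.71 ± 0.25, adjusted p = 0.000139), against 13.8% of all genes passing. GOLS1 gave -0.45 (95% interval -1.46 to 0.56) and turned on 1 library, being 0.33 without EL replicate 3 and -1.18 (adjusted p = 0.0437) without EL replicate 1. Under the rap2.3 label it was -0.30, being 0.57 without EL replicate 3, 0.29 without S+EL replicate 1 and -1.32 (0.0365) without EL replicate 1. The other rap2.3 values were 2.20, 1.57, 1.09 and -1.74 for the same 4 genes, all passing, against 17.2% of all genes, and GOLS4 was lost without EL replicate 3 (adjusted p = 0.0512). All 7 other calls passed under every alternative run. GOLS4 lay at 0.239 to 0.539 FPKM in WT EL and at 0.172 to 0.949 FPKM in EL with the rap2.3 label. It entered the fits through stressed libraries, those of S+EL among them. Its calls here and in the other contrasts of added salt or heat are thus a description of where it was high.
Salt added to heat gave smaller steps, with GOLS4 at 1.03 in WT (adjusted p = 0.0133), against 21.7% of all genes passing, and 21.9% with the rap2.3 label. GOLS2 (1.09, adjusted p = 0.0407), DIN10 (-0.72, 0.0433) and RS5 (0.61, 0.0284) passed there too in WT, but were lost in 8, 7 and 5 of 11 alternatives, among them leaving out S+HS replicate 3 (0.125, 0.0941 and 0.0906). GOLS2 was also lost without HS replicate 2 (0.198) or S+HS replicate 2 (0.169), DIN10 without HS replicate 1 (0.145) or 2 (0.0884) or S+HS replicate 1 (0.175), and RS5 without HS replicate 1 (0.0896) or 2 (0.0992) or S+HS replicate 1 (0.0522) or 2 (0.0568). Under the rap2.3 label RS5 alone passed (0.68, adjusted p = 0.0283), lost without HS replicate 1 (0.121) and without S+HS replicate 2 (0.0864) or 3 (0.127), and with only the compared libraries (0.0613). GOLS2 passed there without HS replicate 1 (0.0252) or S+HS replicate 1 (0.0257). DIN10 was -0.93 there, and passed with size factors (0.0446) and with only the compared libraries (0.0414).
Salt added to EL+HS lowered DIN10 by the same amount in both genotypes (-1.23, adjusted p = 0.00301 in WT and 0.00957 with the rap2.3 label), against 18.8% and 31.2% of all genes. RS5 rose by 0.87 with the rap2.3 label (adjusted p = 0.00559) and by 0.59 in WT (0.0388), where it was 0.41 (0.112) with size factors, the median of all genes having been 0.17. The WT value was also lost without EL+HS replicate 2 (0.168) or 3 (0.0634) and without S+EL+HS replicate 1 (0.0642), 2 (0.113) or 3 (0.0890). GOLS2 in WT (1.07, adjusted p = 0.0482) was lost in 9 of 11 alternatives, single omissions of EL+HS replicates 2 (0.146) and 3 (0.121) and of S+EL+HS replicates 1 (0.123), 2 (0.108) and 3 (0.0800) included. GOLS2 with the rap2.3 label passed without EL+HS replicate 1 (0.0465).

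Heat added to another stress raised GOLS1 in both genotypes, in contrasts chosen after the data were seen. On top of S+EL, heat raised GOLS1 by 2.82 ± 0.48 in WT (adjusted p = 0.000857, limma) and 2.87 with the rap2.3 label (0.00364), where 10.3% and 15.3% of all genes passed. In the same contrast WT RS5 fell by 1.00 ± 0.19 (adjusted p = 0.00198) and GOLS4 fell by 1.86 ± 0.28 (0.000342). GOLS2 was -1.13 ± 0.37 (0.0569) and DIN10 was 0.88 ± 0.25 (0.0277), the latter lost without S+EL replicate 2 (0.0960) or 3 (0.0921) and without S+EL+HS replicate 1 (0.0602) or 3 (0.113). RS5 with the rap2.3 label gave -0.78 (0.0199), lost without S+EL replicate 1 (0.101) or 2 (0.0534) and without S+EL+HS replicate 1 (0.0825) or 3 (0.0618), and GOLS4 -0.95 (0.121). GOLS2 (-0.89) and DIN10 (0.97) did not pass with the rap2.3 label either. With only the compared libraries, GOLS4 (0.0155), GOLS2 (0.00269) and DIN10 (0.00162) passed with that label, and GOLS2 (0.0152) passed in WT.
On top of salt alone, heat raised GOLS1 by 4.93 in WT and 4.77 with the rap2.3 label, and GOLS2 by 1.35 (adjusted p = 0.00867) in WT, lost without S replicate 3 (0.0680) or S+HS replicate 2 (0.0530), and by 1.06 (0.0359) with the rap2.3 label, lost without S replicate 1 (0.103) or 3 (0.166) and without S+HS replicate 2 (0.140) or 3 (0.113). The shares of all genes passing were 31.4% and 27.5%. On top of light, heat raised GOLS1 by 2.37 in WT (0.00545) and 2.38 with the rap2.3 label (0.0122), against 8.06% and 18.6% of all genes, and with only the compared libraries neither passed (0.148 and 0.142). Without EL replicate 1 the second was 1.37 (0.0786). RS5 was -0.56 in both genotypes (0.0748 and 0.0768), passing without EL replicate 3 (-0.73, 0.0238 in WT and -0.78, 0.0160 with the rap2.3 label).

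**Figure D3:**
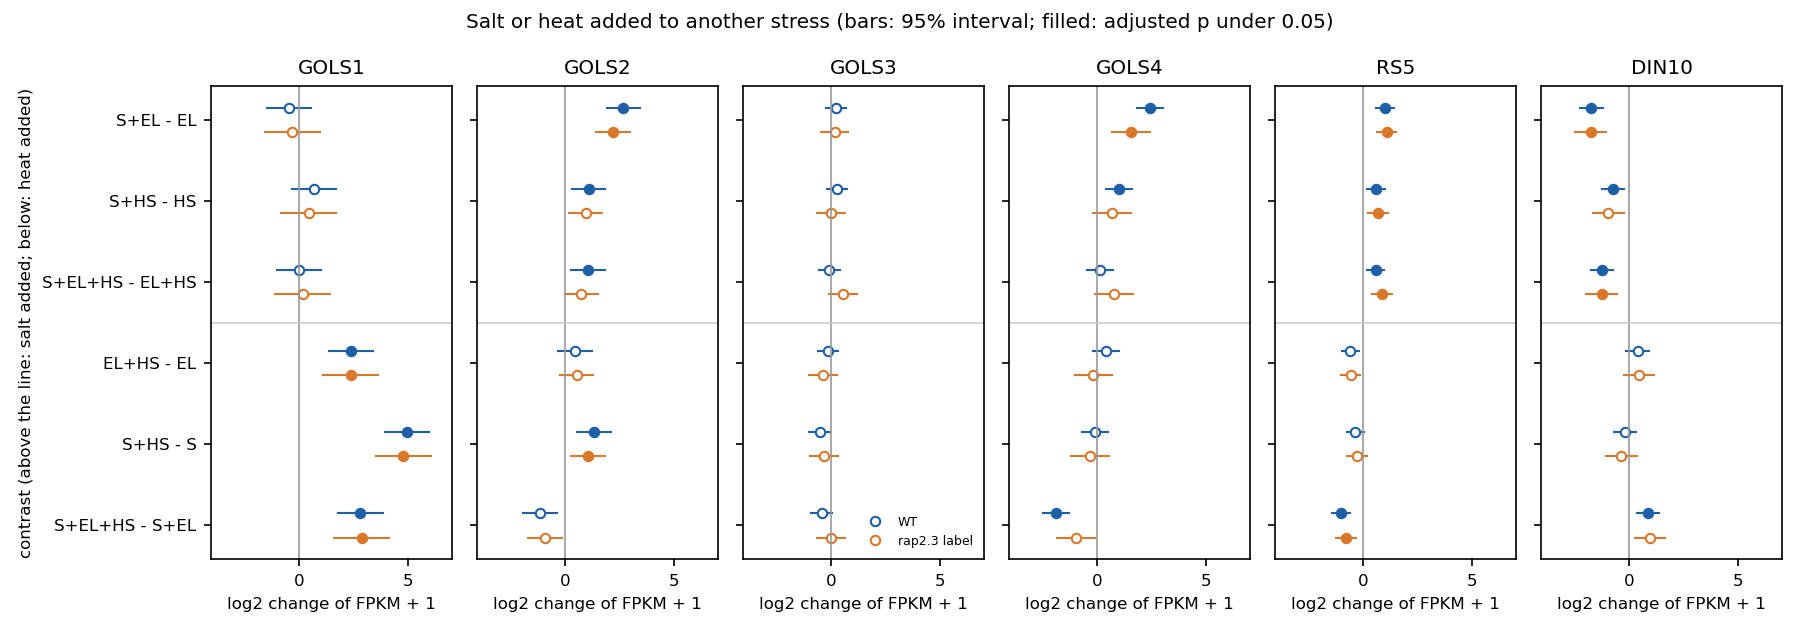
Log2 change of FPKM + 1 when salt (above the line) or heat (below it) was added to another stress, per gene, WT in blue and libraries labelled rap2.3 in orange; points are estimates, bars are 95% intervals and filled points have an adjusted p under 0.05. Salt on light raises GOLS2, GOLS4 and RS5 and lowers DIN10, and heat raises GOLS1.

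On the log2 scale, the joint EL+HS response was smaller than the sum of its parts for GOLS1. A sum of log2 changes is a product of folds, and departure from a sum in FPKM was not tested. The WT means of GOLS1 were 17.8 FPKM at CT, 252 at EL, 776 at HS and 929 at EL+HS. With the rap2.3 label they were 19.4, 322, 788 and 1058 FPKM. Set against the sum of the log2 changes of light and heat alone, GOLS1 fell short by -2.93 ± 0.68 in WT (adjusted p = 0.0112, limma), where 9.28% of all genes passed, and did not pass with only the compared libraries (0.0590). Under the rap2.3 label it was -2.83 ± 0.85 (0.0305), against 14.8% of all genes, and was lost in 10 of 17 alternatives: without CT replicate 1 (0.0545) or 2 (0.0691), EL replicate 2 (0.0570) or 3 (-1.97, 0.0618), HS replicate 2 (0.0576), EL+HS replicate 2 (0.0531) or 3 (0.0598), with no filter (0.0530), size factors (0.0629) or only the compared libraries (0.0987). GOLS2 gave -1.70 in WT (0.0457) and -1.59 with the rap2.3 label (0.0433), each lost in 13 of 17 alternatives, among them, in both genotypes, without any 1 of the CT libraries, without EL replicate 2 or 3, HS replicate 1 or 3, and EL+HS replicate 2 or 3 (adjusted p 0.0508 to 0.113 in WT and 0.0615 to 0.115 with the rap2.3 label). DIN10 gave 1.24 in WT (0.0317), lost in 7 of 17, among them without CT replicate 1 (0.0756), EL replicate 1 (0.0871), HS replicate 2 (0.0647) or 3 (0.0856) and EL+HS replicate 2 (0.0963). Between the single stresses, heat exceeded light for GOLS1 by 2.05 in WT (0.00355) and 1.90 with the rap2.3 label (0.0236), against 26.7% and 27% of all genes, neither of which passed with only the compared libraries (0.0841 and 0.195). The WT value was 1.32 without EL replicate 1 and 2.83 without EL replicate 3. The rap2.3 value was also lost without EL replicate 1 (0.148) and without HS replicate 1 (0.0759) or 2 (0.0531), at 0.89 in the first case. RS5 was lower in heat than in light in WT (-0.94 ± 0.19, 0.0011), and with the rap2.3 label the value was -0.53 (0.0753).

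GOLS1 varied more among the replicates of excess light than in any other treatment, and same-numbered libraries of the genotypes had the same order. At EL the highest library was 8.21 times the lowest in WT and 13.8 times with the rap2.3 label, against 1.13 and 1.27 times at CT. Replicate 1 was lowest and replicate 3 highest in both genotypes at EL and S+EL, and replicate 1 was highest and replicate 3 lowest in both at HS. HSFA2, a heat shock factor that is itself heat induced, held 14.5, 20.6 and 61.2 FPKM in WT EL and 17.5, 26.1 and 87.3 FPKM with the rap2.3 label, the same order as GOLS1. In WT HS it held 76.1, 41.4 and 28.8 FPKM, again in the order of GOLS1. Over all 21322 genes the order was shared by 36% at EL and 35.3% at HS, against 20.1% to 26.2% at the other 6 treatments. What the number stands for beyond the replicate is not given in the labels, and the cause of the order was not tested.

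**Figure D4:**
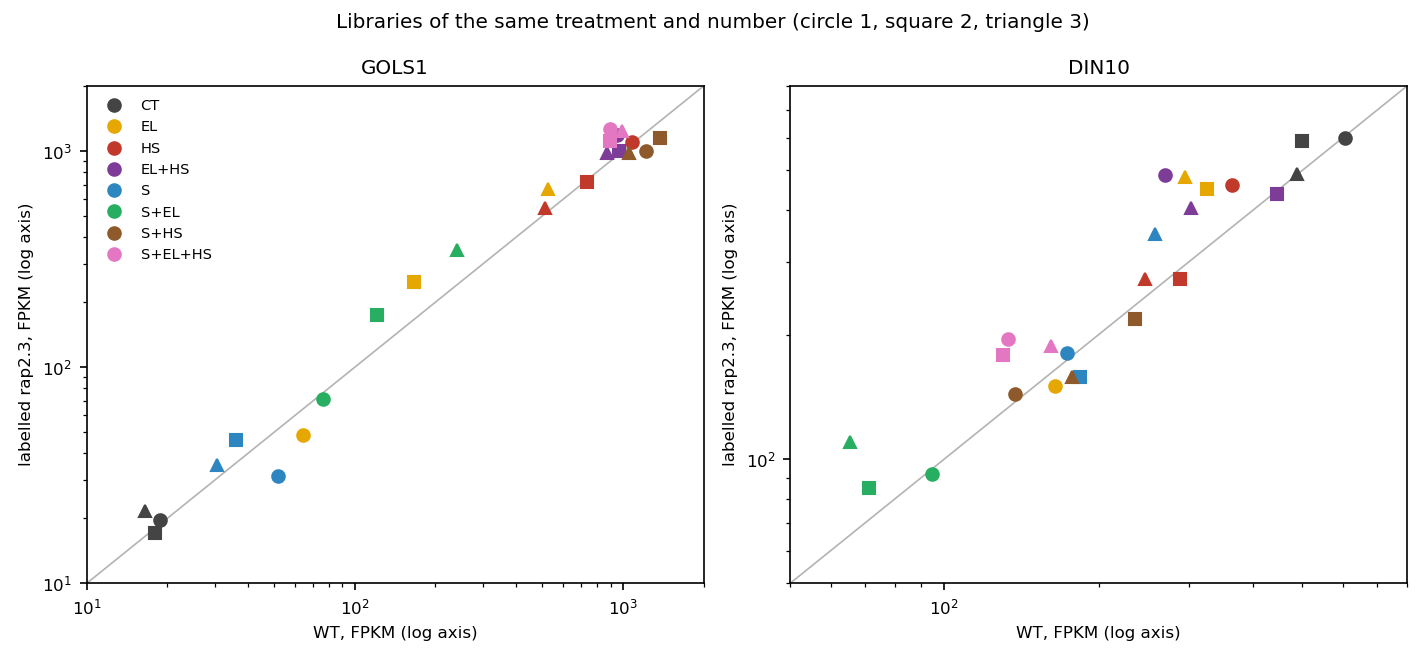
FPKM of GOLS1 (left) and DIN10 (right) in same-numbered libraries, WT on x and libraries labelled rap2.3 on y, both axes logarithmic; colours are treatments, shapes are replicate numbers and the line marks equal values. The GOLS1 points of EL and S+EL spread along the line, from 64.1 and 48.4 FPKM to 526 and 669 FPKM at EL.

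No member differed between the genotype labels in the fit of all 48 libraries. In limma 0 of 54 tests at the 8 treatments and their mean passed, and 2 had an unadjusted p under 0.05, both of GOLS4, at S+EL (-0.80, 95% interval -1.53 to -0.07) and as the mean (-0.27). Of all genes 0.0657% passed in CT, 0.155% in excess light, 0.0188% in heat, 7.39% with light and heat, 0.0234% in salt and also in salt with light, 0.0281% with salt and heat, 0.0610% under all 3 stresses and 10.3% as the mean. The mean difference (rap2.3 label minus WT) was 0.12 for GOLS1 (95% interval -0.29 to 0.53), 0.21 for GOLS2 (-0.06 to 0.49), -0.14 for RS5 (-0.29 to 0.01) and 0.21 for DIN10 (-0.01 to 0.44) in that fit. When same-numbered libraries of a treatment were blocked together, 4 tests passed: the means of DIN10 (0.21, adjusted p = 0.0114), RS5 (-0.14, 0.0129) and GOLS4 (-0.27, 0.0277), and RS5 at EL+HS (-0.39, 0.0179). In that blocked fit 4381 of all 21322 genes passed as the mean and 4079 at EL+HS, so these calls are not particular to the members. Of the 4079 genes, 3587 were lower with the rap2.3 label. In the fit without blocks 1486 of 1575 genes called at EL+HS were lower, and with size factors 488 were higher and 562 lower. Without blocks, DIN10 also passed as the mean without the rap2.3 EL replicate 1 (0.28, 0.0342), and GOLS4 without the rap2.3 S replicate 2 (-0.35, 0.0228). The interaction of genotype and stress gave 0 of 42 calls and 0 with an unadjusted p under 0.05, where 0 to 0.00469% of all genes passed. The genotypes also stand in separate deposited tables, and genotype and table cannot be told apart.

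The other listed genes were called most often at S+EL, where 20 of 38 tested of 44 listed rose and 10 fell in WT. The 44 join genes of the sugar pathways with the regulators and the other dark-inducible genes, so these counts are not of pathway genes alone. The UDP-glucose epimerase UGE5, which makes UDP-galactose, rose from 2.20 ± 0.04 (SD, n = 3) to 27.4 ± 5.95 FPKM, and 3 of 5 epimerases rose and 2 fell. The myo-inositol phosphate synthase gene MIPS2 rose from 15.9 ± 1.45 to 84.7 ± 13.6 FPKM, and MIPS1 from 78.1 to 224 FPKM, 2 of 4 on their list. All 5 tested sucrose synthases of 6 rose at S+EL, SUS1 from 5.43 ± 0.734 to 37.4 ± 9.74 FPKM and SUS3 from 3.96 to 21.8 FPKM. Of 4 sucrose phosphate synthases SPS2F rose from 4.11 to 35.6 FPKM while SPS4F fell from 76.6 to 37.6 FPKM, and 2 rose and 1 fell.
At HS 7 of the 38 were higher and 10 lower, beside 15% and 15.7% of all genes. There SPS4F fell by 2.20 ± 0.18 (adjusted p = 4.27e-08, limma), UGE5 was -0.02 (0.955) and MIPS1 fell by 0.96 while MIPS2 rose by 1.24. The α-galactosidase AGAL1, of the family that removes galactose from raffinose, rose by 1.49 ± 0.13 at HS and AGAL2 fell by 0.91, 1 up and 1 down of 3. RS2, a raffinose synthase-like gene, fell by 1.50 ± 0.16 at HS and 1.19 at S. The 4 other galactinol synthase family genes were too low to be tested, and 0 of 4 entered the fit.
Of the regulators, HSFA2 rose by 4.79 ± 0.48 at HS (adjusted p = 3.7e-07, limma) and 4.45 at S+EL, and was 0.21 (0.819) at S. HSFB1, a class B heat shock factor, rose by 1.98 at HS and 1.01 at S. At HS 3 of 8 regulators rose and 0 fell, beside 15% of all genes higher and 15.7% lower. Of the 7 other dark-inducible genes 0 rose in any of the 7 WT treatments and 5 fell at S+EL, beside 12.8% of all genes lower there. Among them was DIN1, which codes for a senescence-linked protein and fell from 213 ± 85.4 to 31.04 ± 6.54 FPKM. DIN11 fell by 2.89 ± 0.53 at S in WT, but lay lower at CT with the rap2.3 label (-2.73, adjusted p = 0.00483). At S+EL the counts over the 38 genes stand beside 23.2% of all genes higher and 12.8% lower.

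**Figure D5:**
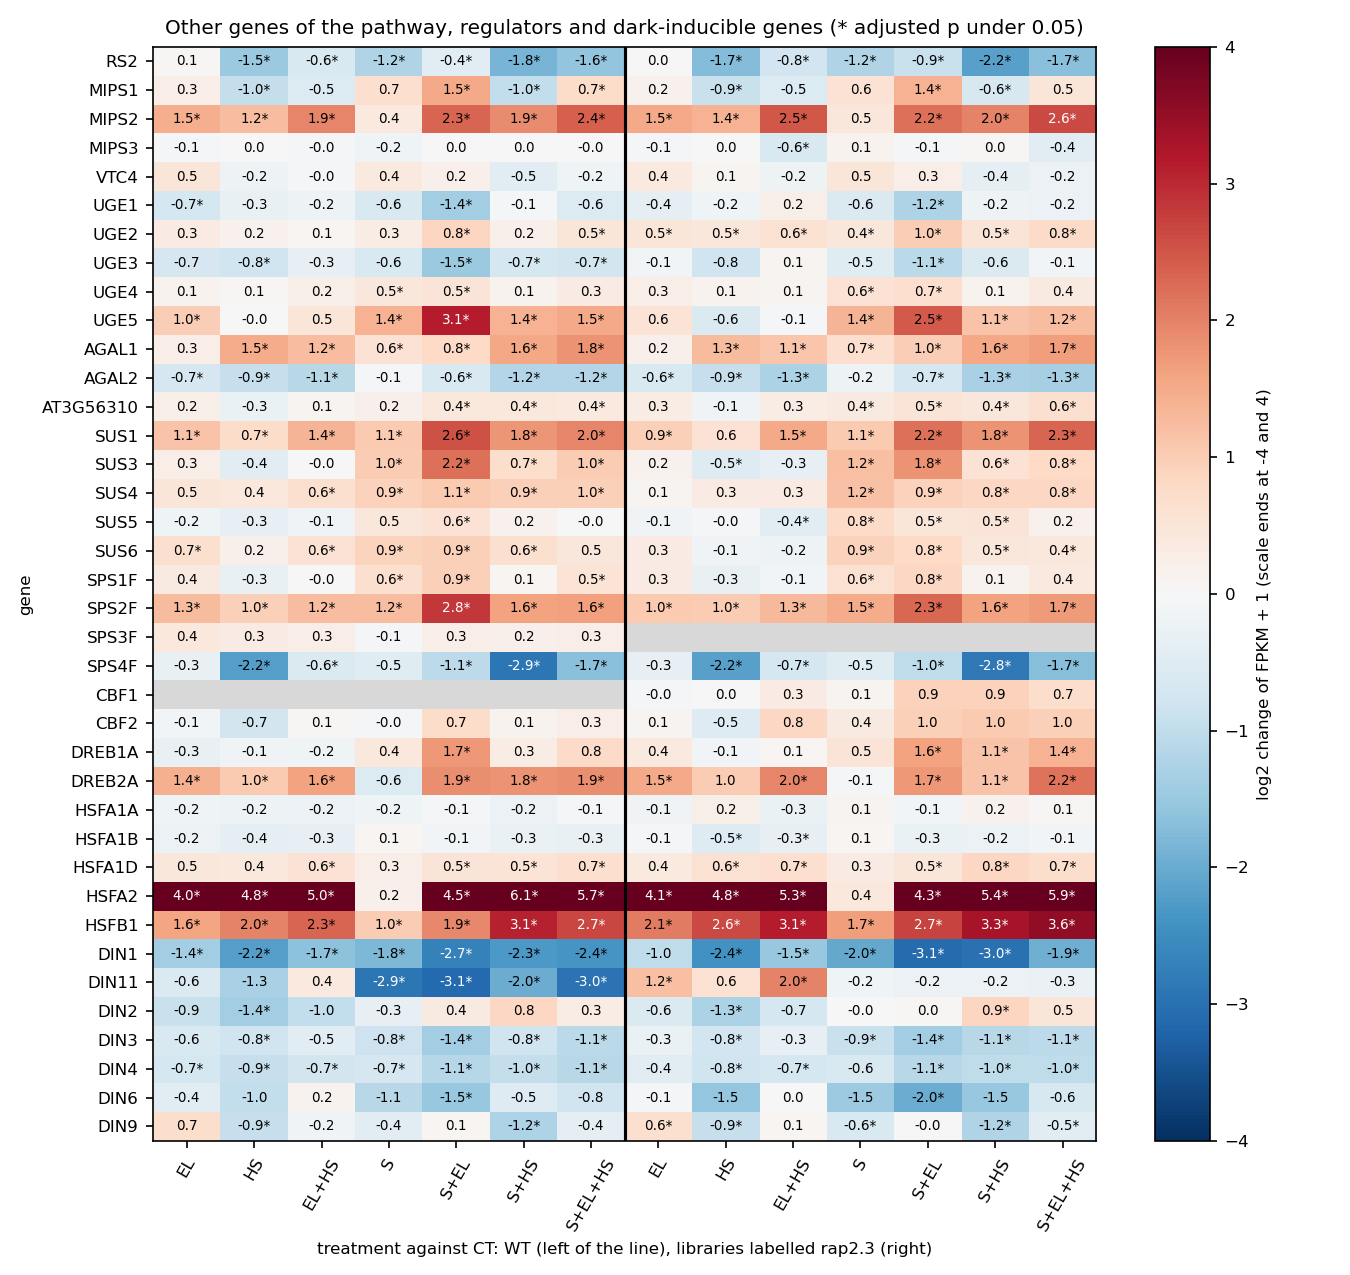
Log2 change of FPKM + 1 against CT for 38 of the listed genes (rows) in 7 treatments (columns), WT left and libraries labelled rap2.3 right of the line; stars mark an adjusted p under 0.05, grey marks genes under the filter and the colour scale ends at -4 and 4. HSFA2 has the largest change in every column but the S columns.

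Across the 16 group means the members fell into patterns. RS5 and DIN10 ran opposite, at a Pearson's r of -0.931, as did GOLS4 and DIN10 (-0.904), while GOLS4 and RS5 ran together (0.889). GOLS1 was near 0 with RS5 (-0.02) and GOLS4 (-0.01), and GOLS2 lay between, at 0.57 with GOLS1 and 0.75 with RS5. The points share treatments and libraries, so no p is given. Among 16188 other genes, those most like GOLS1 were AT5G37670, annotated as an HSP20-like chaperone, AT1G10050, and HSP60, a mitochondrial chaperone, each with r of 0.994. Those most like GOLS2 were KIN2, a cold and abscisic acid responsive gene (0.978), AT5G57610 (0.973) and the dehydrin ERD10 (0.972), all highest at WT S+EL. For RS5 they were AT5G10730, the aspartic protease gene APA1 and AT3G24840 (0.969 to 0.973), and for GOLS4 SWEET13, a sucrose transporter, NUDT24 and EULS3 (0.936 to 0.942). For DIN10 they were AT2G30600 (0.991), the bZIP factor gene BZO2H3 (0.986) and AT2G25200 (0.984), all lowest at WT S+EL. With a pseudocount of 0.1 the genes most like GOLS1 were AT5G37670, APX2 and ATHSP22.0, and KIN2, ERD10 and AT5G57610 again led for GOLS2. For GOLS4 they were ICDH, GLX1 and EULS3, without SWEET13 and NUDT24, and the last of the 3 changed to DHAR1 for RS5 and to AT5G22920 for DIN10.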

How the data were processed

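RNA of whole seedlings was sequenced by the submitters' service on an Illumina instrument. FPKM values were deposited by the authors in 1 table for each genotype, per the file headers. HISAT2, Cufflinks and the build TAIR10 are named in the submitters' processing notes, with no versions, and strand use is not given in the sources used here. Each table has 32826 rows for 32824 loci, and the 2 loci on more than 1 row were summed. FPKM summed to 765860 to 822875 per library, 21267 to 23316 loci were above 0, and 2028 positive values were in effect 0, so a listed 0 can be a failed estimate. No fragment counts are given, so the depth behind a value is unknown. Relative depths came from the steps of low values (92.5% of library pairs within 0.03 log2 of the fitted ratio), and 0 library pairs were identical. The labels call the 3 replicates biological repeats.

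Values were tested as log2(FPKM + 1), which understates changes of low genes, with limma 3.58.1 in R 4.3.3 (lmFit, eBayes with an intensity trend). Genes at 1 FPKM or more in at least 3 libraries of a fit were tested: 20744 in WT, 20592 with the rap2.3 label (24 libraries each, 16 residual degrees of freedom) and 21322 over the 48 libraries (32 degrees of freedom). Adjustment of P-values was by Benjamini-Hochberg within each contrast over all genes, and called under 0.05. Only 6 of 7 members could be tested. The fits were tested on simulated data. Alternatives were a pseudocount of 0.1, no filter, median-of-ratios size factors, blocks for replicate number, only the compared libraries, and each library left out. The contrasts of added heat were chosen after seeing the data. Members, gene lists and markers were chosen with earlier results of these data known.

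Replicate numbers 1 to 3 are shared by all groups. Correlations of same-numbered deviations were over 0.1 for all 3 numbers at EL between genotypes (0.520, 0.103 and 0.414) and in no other pair of groups checked. Between genotypes they were 0.357, 0.0334 and 0.349 at HS, 0.304, 0.0357 and 0.215 at S+EL, and 0.267, 0.171 and 0.0825 at S+HS. These data thus do not limit a pairing by number to EL, and the labels do not give one. Blocking changed no call of a member at EL between genotypes. Over all genes the calls there went from 33 to 29 with the replicate block. With same-numbered libraries of a treatment blocked together they went to 135. 1 gene of the lists enters the counts, but its values are not reported here. All members were named, and of each other list the 1 or 2 genes with the largest change in WT S+EL+HS, HS or S among those called and at 5 FPKM or more in the higher group; for likeness, the 3 highest Pearson correlations over 16 group means. Coordinates and the 250-base windows were read from RefSeq TAIR10.1 with Biopython 1.88, and figures drawn with matplotlib 3.10.9.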

Additional observations from a re-analysis of the deposited data

How the results depend on the processing

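With the replicate number as a block, 30 of the 33 stress calls of members in WT and 26 of the 27 with the rap2.3 label passed, as did 11 of the 16 WT calls between stresses, and when same-numbered libraries of a treatment were blocked together the count between genotypes went from 0 to 4. Leaving out 1 library gave 0 to 1 there. With those treatment blocks the calls over all 21322 genes went from 2190 to 4381 as the mean and from 1575 to 4079 at EL+HS. The calls between stresses in WT went from 16 to 10 with no filter on low values and to 10 when a fit held the compared libraries alone. The change of GOLS1 when salt was added to excess light was not called and its sign turned on single libraries: leaving out 1 library gave -1.18 to 0.33 in WT, where 0.33 was without EL replicate 3, and -1.32 to 0.57 with the rap2.3 label, where 0.57 was without EL replicate 3 and 0.29 without S+EL replicate 1. The other counts of calls stayed within 1.5 times under each alternative run. Changes of the low genes were larger with a pseudocount of 0.1: at S in WT, GOLS2 went from 1.92 to 3.24, GOLS4 from 1.36 to 2.88 and GOLS3 from 0.95 to 2.53, all still called. The FPKM tables give no fragment numbers, which limits what can be said of GOLS3, GOLS4 and RS4 near 1 FPKM. The causes of these changes were not tested.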
